A study of Mus musculus with 12 samples.

Results

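The 9 genes described here encode the core of the interleukin-1 (IL-1) and interleukin-18 (IL-18) system: the ligands Il1a, Il1b and Il18, the soluble antagonists Il1rn and Il18bp, the signalling receptor chains Il1r1 and Il1rap, the decoy receptor Il1r2, and the interleukin-33 receptor Il1rl1. They were picked by symbol and not by a measured value, and each symbol matched 1 of the 47729 genes in the count table. All 9 were among the 15232 genes with enough counts to be tested. IL-1 alpha and IL-1 beta bind IL1R1, which then recruits the accessory protein IL1RAP and signals through MyD88 and IRAK kinases to NF-kB. IL1RN, the IL-1 receptor antagonist, occupies IL1R1 without recruiting IL1RAP, and IL1R2 binds IL-1 but has no signalling domain, so both blunt the response. IL-18 is neutralised by its binding protein IL18BP, which binds IL-18 itself. IL-1 beta and IL-18 both need cleavage by caspase-1 before they are active, so RNA levels do not give the amount of active cytokine.

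Peritoneal macrophages of C57BL/6 mice were sequenced as polyA RNA in 4 groups of 3 libraries. IL4c mice had received 2 injections of IL-4 complexes, each of 5 ug IL-4 bound to 25 ug of an IL-4 antibody, which make resident macrophages divide and take on an alternatively activated state, and their cells were taken 2 days after the last one. TG mice had received 1 injection of 3% thioglycollate, an irritant broth that recruits blood-derived macrophages, and their cells were taken 4 days later. Adherent cells of each kind were cultured for 24 h with 20 ug/ml SPARC, a secreted glycoprotein of the extracellular matrix, or left untreated. The 4 groups are therefore IL4c with SPARC, IL4c untreated, TG with SPARC and TG untreated. All cells came from injected mice, age and sex were not stated, no control protein was named for the SPARC wells, and the labels do not say whether libraries 1 to 3 of a group are different animals, so the p-values cover only the scatter among these libraries, which may be technical. The study asked how SPARC changes RNA levels in each kind of macrophage.

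Libraries held 31501941 to 42288785 counts, so that 3 counts equalled 0.0707 to 0.0974 CPM, counts scaled to library size. The macrophage markers Adgre1, Csf1r and Cd68 were at 734 CPM or more in every library. The 8 macrophage markers, in 9 entries since Itgam has 2, summed to 12897 to 34911 CPM. Lyz2 was the largest part in every library (4444 to 27859 CPM). Not all of the markers were high: Fcgr1 was lowest in untreated IL4c cells, down to 5.84 CPM. With SPARC, Fcgr1 was higher and Mertk and Lyz2 were lower in IL4c cells (adjusted p under 0.05, edgeR). In TG cells with SPARC, 1 of the 2 entries of Itgam was higher at that threshold. The 2 TG libraries numbered 1 stood apart: their B cell markers summed to 1857 CPM with SPARC and 2383 CPM untreated, whereas the other 4 TG libraries lay between 93.3 and 196 CPM. The 2 IL4c libraries numbered 3 also stood apart: 5 proliferation genes summed to 209 CPM with SPARC and 225 CPM untreated, whereas the other 4 IL4c libraries lay between 66.4 and 89.5 CPM. For the 9 genes, calls that change without either pair are also given without it. In bulk RNA, fewer cells of a type and less RNA per cell cannot be told apart.

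Promoters of 300 bases show the sequence at which the main members of each role start: a ligand (Il1b), an antagonist (Il1rn, the second of its 3 listed starts), the decoy (Il1r2) and the accessory chain (Il1rap). They run from upstream of the RefSeq start to just past it, 5′ to 3′ on the strand of the gene, on GRCm38.p6. Il1b lies at chr2:129371090-129371389 on the minus strand. Il1rn lies at chr2:24345041-24345340, Il1r2 at chr1:40085843-40086142 and Il1rap at chr16:26581455-26581754, all on the plus strand, and the Il1rn and Il1r2 starts shown lie inside the annotated genes. Capitals mark matches, on either strand, to the interferon response element (GAAA, 2 bases of any kind, GAAA), NF-kB letters (GGG, 5 bases of any kind, CC) or STAT6 letters (TTC, 4 bases of any kind, GAA).
Il1b: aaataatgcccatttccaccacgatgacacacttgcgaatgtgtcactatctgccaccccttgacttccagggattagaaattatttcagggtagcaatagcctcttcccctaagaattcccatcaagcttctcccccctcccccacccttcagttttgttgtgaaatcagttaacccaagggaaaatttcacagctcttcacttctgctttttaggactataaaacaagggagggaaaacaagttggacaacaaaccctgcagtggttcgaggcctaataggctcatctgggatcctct
Il1rn: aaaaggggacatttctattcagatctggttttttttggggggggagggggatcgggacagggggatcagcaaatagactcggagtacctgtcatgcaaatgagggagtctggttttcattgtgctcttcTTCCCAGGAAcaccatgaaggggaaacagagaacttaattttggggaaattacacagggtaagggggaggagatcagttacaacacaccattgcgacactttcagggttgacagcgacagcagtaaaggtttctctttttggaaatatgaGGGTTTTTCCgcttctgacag
Il1r2: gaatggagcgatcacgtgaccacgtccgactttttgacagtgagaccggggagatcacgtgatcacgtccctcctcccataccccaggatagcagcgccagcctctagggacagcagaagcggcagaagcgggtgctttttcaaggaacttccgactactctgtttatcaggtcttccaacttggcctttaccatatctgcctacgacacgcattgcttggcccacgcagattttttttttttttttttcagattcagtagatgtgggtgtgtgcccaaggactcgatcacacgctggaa
Il1rap: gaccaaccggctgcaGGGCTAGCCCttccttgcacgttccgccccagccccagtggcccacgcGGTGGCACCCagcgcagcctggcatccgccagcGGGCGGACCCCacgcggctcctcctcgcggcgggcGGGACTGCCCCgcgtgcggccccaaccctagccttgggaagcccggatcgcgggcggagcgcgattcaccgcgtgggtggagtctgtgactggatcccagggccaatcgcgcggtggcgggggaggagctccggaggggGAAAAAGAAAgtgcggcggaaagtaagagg

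Among these, the Il1rap promoter held the 1 interferon response element found near any of the 9 genes, GAAAAAGAAA, starting 20 bases after the start, a motif present in 3.44% of all 32851 RefSeq promoters of that length. Its other capitals are NF-kB letters, which 50.8% of all promoters held. The Il1rn promoter shown held the STAT6 letters TTCCCAGGAA 121 bases before its start and NF-kB letters 29 bases after it. The overlapping window of Il1rn start 3 held the same matches, while start 1 of Il1rn held NF-kB letters only. Il18 also held STAT6 letters (TTCCCCAGAA), and start 2 of Il1r1 held NF-kB letters. STAT6 letters occurred in 6.95% of all promoters. None of the 3 motifs was found in the windows of Il1r2, Il1b, Il1a, Il18bp and Il1rl1. A match describes letters only, and no match says nothing of binding outside the window.

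In IL4c macrophages, SPARC raised 6 of the 9 genes and lowered none: the ligand Il1a, both antagonists, both signalling receptor chains and the decoy Il1r2. The median log2 fold change of the 9 was 2.63, beside 0.00 over all genes tested. Of all genes tested, 15.1% passed as higher in this comparison. For 7 of the 9, the 3 SPARC libraries lay above the 3 untreated ones, which held for 25.5% of all genes. In TG macrophages, SPARC raised 3 of the 9, Il1a, Il1b and Il1r2, and lowered none, beside 6.73% of all genes passing as higher. The median of the 9 there was 1.08, beside -0.03 over all genes, and 7 of the 9 did not overlap, beside 16.2% of all genes. These calls leave the libraries unpaired. With the replicate number as a block, Il1b also passed as higher and Il1rl1 as lower in IL4c cells. Of all genes, 22.8% were then higher and 22.4% lower. Passing means an adjusted p under 0.05 (Benjamini-Hochberg, over all genes tested) in edgeR's quasi-likelihood test, and fold changes below are log2 values ± SE from that fit.

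**Figure D1:**
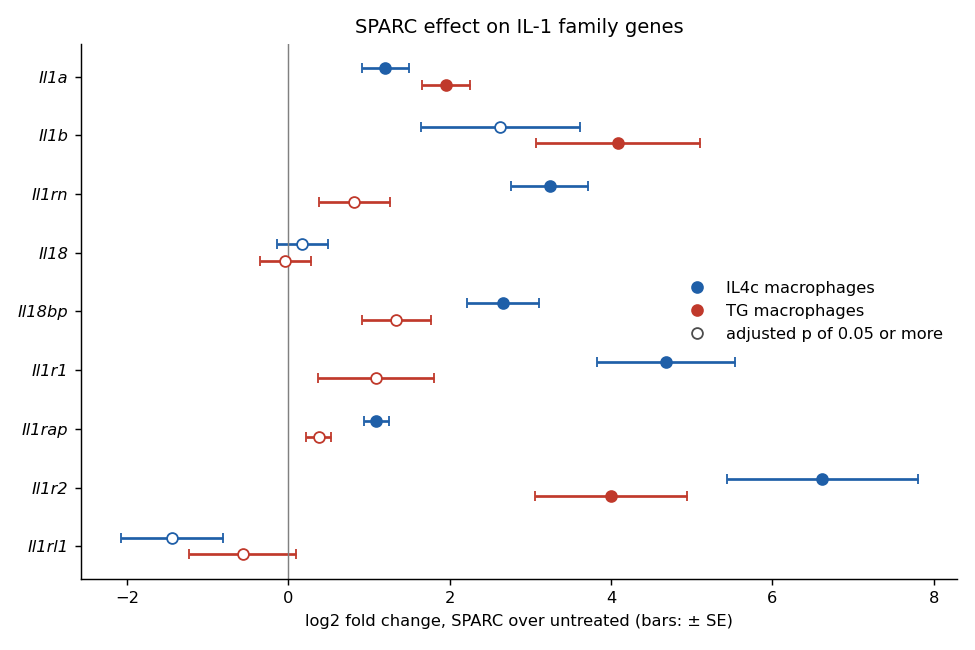
Log2 fold change of SPARC over untreated macrophages (x axis) for the 9 genes (y axis), with bars of ± SE, in IL4c macrophages (blue, upper point) and TG macrophages (red, lower point), 3 libraries per group. Filled points passed the adjusted p of 0.05. Il1r2 and Il1r1 have the largest fold changes in IL4c cells (6.62 and 4.68), Il1b and Il1r2 the largest in TG cells (4.09 and 4.00), and Il18 lies close to 0 in both.

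Among the ligands, Il1a (chromosome 2, 129299610 to 129309972, minus strand of GRCm38) encodes IL-1 alpha, which is active without cleavage and acts as an alarm signal. It was at 107, 107 and 152 CPM in IL4c cells with SPARC, against 70.7, 47.4 and 40.7 CPM in untreated IL4c cells. TG cells held 111, 88.8 and 86.4 CPM with SPARC, against 15.4, 25.2 and 33.1 CPM untreated. SPARC libraries were above untreated ones without overlap in each injection. Il1a rose by 1.20 ± 0.29 in IL4c cells (adjusted p = 0.0129, edgeR) and by 1.96 ± 0.30 in TG cells (adjusted p = 0.0044, edgeR). The IL4c call was lost without untreated library 2 (adjusted p = 0.0584, edgeR) and without both IL4c libraries numbered 3 (adjusted p = 0.12, edgeR), while the TG call was kept in all of the alternatives run. Exons of Il1a share 222 bases with the opposite-strand gene Gm14023, which had at most 24 counts in a library.

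Il1b (chromosome 2, 129364570 to 129371139, minus strand), a neighbour of Il1a, encodes IL-1 beta, the main secreted pro-inflammatory form. It was at 26.2, 23.2 and 7.05 CPM in IL4c cells with SPARC, against 5.91, 2.94 and 0.373 CPM in untreated IL4c cells. In TG cells it was at 238, 45.7 and 45.7 CPM with SPARC, against 9.12, 2.58 and 7.62 CPM untreated. All 3 SPARC libraries exceeded all 3 untreated libraries in each injection, and TG library 1 with SPARC was far above the others. Il1b rose by 4.09 ± 1.02 in TG cells (adjusted p = 0.0303, edgeR). In IL4c cells the difference of 2.63 ± 0.98 did not pass (adjusted p = 0.0729, edgeR), but it passed with the replicate number as a block (2.84 ± 0.51, adjusted p = 0.00552, edgeR) and without both TG libraries numbered 1, which leaves another estimate of the spread (2.65, adjusted p = 0.0299, edgeR). The ratio of SPARC to untreated CPM within a number was 4.44, 7.90 and 18.9 in IL4c cells and 26.1, 17.7 and 6.01 in TG cells. The TG call was lost without both TG libraries numbered 1 (3.18, adjusted p = 0.0643, edgeR) and without any of SPARC library 1, untreated library 2 or untreated library 3 alone (adjusted p of up to 0.0932, edgeR).

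Neutrophils and monocytes also carry Il1b, and neutrophils Il1r2, so their markers are given beside these genes. The 12 neutrophil markers summed to 231 to 294 CPM in IL4c cells with SPARC, against 150 to 295 CPM in untreated IL4c cells, and to 233 to 440 CPM in TG cells with SPARC, against 206 to 360 CPM in untreated TG cells. Ly6g had at most 1 count and S100a9 at most 3 counts in any library, while Csf3r was at 98.9 to 308 CPM. Of the 4 markers with enough counts to be tested, S100a8 passed as higher with SPARC in both injections and Camp in IL4c cells. S100a8 was at 51.6, 30.4 and 27.5 CPM in TG cells with SPARC, against 11.4, 8.13 and 6.57 CPM in untreated TG cells. Mmp8 had its highest level, 235 CPM, in TG library 1 with SPARC, the library with the most Il1b. Its next highest level, 154 CPM, was in IL4c library 3 with SPARC, which had the least Il1b of its group. Csf3r was at 153 CPM in TG library 1 with SPARC, against 308 CPM in untreated TG library 1. The 7 monocyte markers summed to 455 to 1392 CPM in TG cells with SPARC, against 163 to 777 CPM in untreated TG cells. Ly6c2 and Vcan passed as higher and Ccr2 as lower there, with Ly6c2 at 189, 227 and 197 CPM with SPARC, against 14.2, 0.991 and 0.499 CPM untreated. In IL4c cells the sum was 19229 to 26536 CPM with SPARC, against 24398 to 35398 CPM untreated, most of it Chil3, and Ly6c2 passed as higher and Ccr2 as lower. The part of these cells in the Il1b and Il1r2 results was not tested.

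Il18 (chromosome 9, 50554827 to 50581840, plus strand) encodes IL-18, which drives interferon-gamma production by lymphocytes. It was at 7.12, 11.5 and 7.38 CPM in IL4c cells with SPARC, against 8.24, 9.08 and 5.78 CPM in untreated IL4c cells. TG macrophages had 9.29, 8.33 and 7.56 CPM with SPARC, against 13.1, 5.81 and 6.91 CPM untreated. All 4 groups overlapped, and the differences, 0.17 ± 0.31 in IL4c cells and -0.04 ± 0.31 in TG cells, were smaller than their errors (adjusted p = 0.721 and 0.961, edgeR). The SE leaves room for a change of either sign in this gene.

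**Figure D2:**
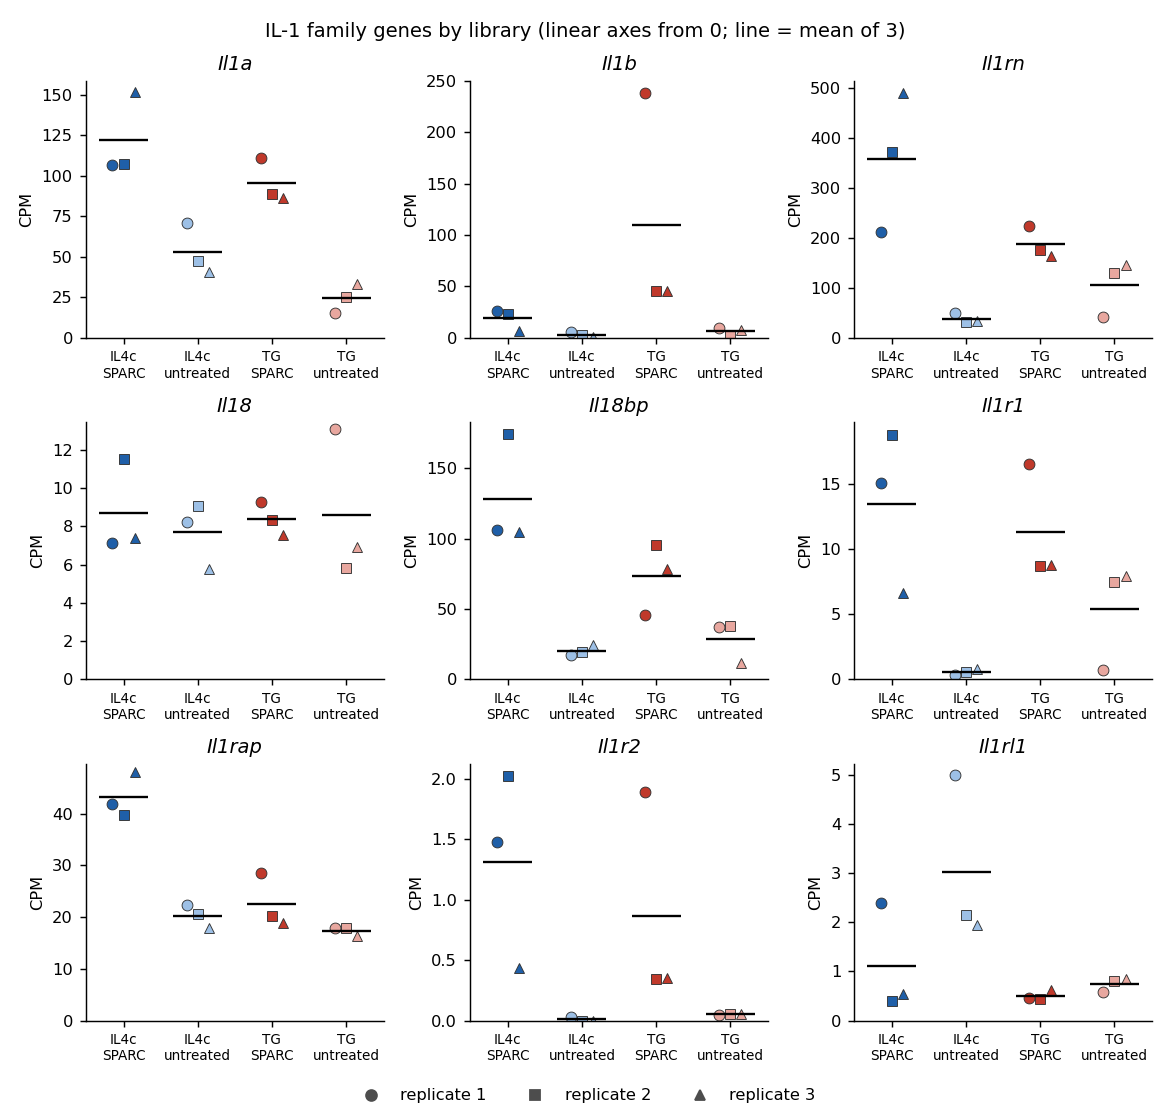
CPM of each of the 9 genes (y axes, linear from 0) in the 12 libraries, by group (x axes), with circles, squares and triangles for replicates 1, 2 and 3 and a line at the mean of 3. Il1rn, Il18bp, Il1r1, Il1rap and Il1r2 are higher in every IL4c SPARC library than in any untreated IL4c library, Il1b has its highest value (238 CPM) in TG SPARC replicate 1, and Il18 overlaps in all 4 groups.

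The antagonists responded in IL4c cells. Il1rn (chromosome 2, 24336853 to 24351494, plus strand), whose second promoter is shown above, was at 212, 371 and 490 CPM in IL4c cells with SPARC, against 50.1, 30.9 and 32.8 CPM in untreated IL4c cells. In TG cells it was at 224, 175 and 164 CPM with SPARC, against 42.5, 130 and 146 CPM untreated. Il1rn rose by 3.24 ± 0.47 in IL4c cells (adjusted p = 0.0011, edgeR), to 4.23, 12.01 and 14.96 times the untreated library of the same number. In TG cells the SPARC libraries were also the higher ones, but the difference of 0.82 ± 0.44 did not pass (adjusted p = 0.268, edgeR). It was largest in pair 1, 5.26 times, against 1.34 and 1.12 times in the other TG pairs, and without pair 1 the fold change was 0.32.

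Il18bp (chromosome 7, 102014885 to 102018690, minus strand) encodes the soluble protein that neutralises IL-18. It was at 106, 174 and 105 CPM in IL4c cells with SPARC, against 17.0, 19.6 and 24.1 CPM in untreated IL4c cells. TG cells had 45.7, 95.2 and 78.5 CPM with SPARC, against 36.8, 38.1 and 11.8 CPM untreated. The groups did not overlap in either injection. Il18bp rose by 2.66 ± 0.45 in IL4c cells (adjusted p = 0.00224, edgeR), and its difference of 1.34 ± 0.43 in TG cells did not pass (adjusted p = 0.0744, edgeR), though it did without TG pair 1 (1.82, adjusted p = 0.0424, edgeR). Its exons share 80 bases with Numa1 on the other strand, which was at 118 to 202 CPM and was lower with SPARC in IL4c cells (-0.42, adjusted p = 0.0378, edgeR).

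Il1rn was also set against Il1b, and Il18bp against Il18, within a library as a ratio of FPKM. FPKM are fragments per kilobase of gene and per unit of depth, the authors' values, which allow levels of different genes to be compared. IL1RN also blocks IL-1 alpha, but Il1a is not in this ratio. Il1a averaged 27.1 FPKM in untreated IL4c cells, against 2.36 FPKM for Il1b. In FPKM, Il1rn was below Il1a in every untreated IL4c library and above it in every other library. The balance of Il1rn to both ligands together was not tested. Il1rn exceeded Il1b in 11 of the 12 libraries. The ratio was 5.39, 10.7 and 48.7 in IL4c cells with SPARC, against 5.67, 6.82 and 63.4 in untreated IL4c cells, and 0.635, 2.57 and 2.52 in TG cells with SPARC, against 3.45, 35.01 and 13.8 in untreated TG cells. With SPARC the ratio was lower in all 3 TG libraries than in any untreated one, with a difference of log2 ratios of -2.85, and it overlapped between the IL4c groups, with a difference of 0.22. Two-sided exact permutation tests gave p = 0.1 for TG cells, the smallest value that 3 against 3 libraries allow, and p = 0.9 for IL4c cells. The ratio of Il18bp to Il18 was 7.04, 7.15 and 6.72 in IL4c cells with SPARC, against 0.974, 1.02 and 1.98 in untreated IL4c cells. In TG cells it was 2.33, 5.41 and 4.92 with SPARC, against 1.33, 3.10 and 0.808 untreated. The IL4c groups did not overlap (difference of log2 ratios 2.47, exact permutation p = 0.1), and the TG groups did (1.40, exact permutation p = 0.2).

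**Figure D3:**
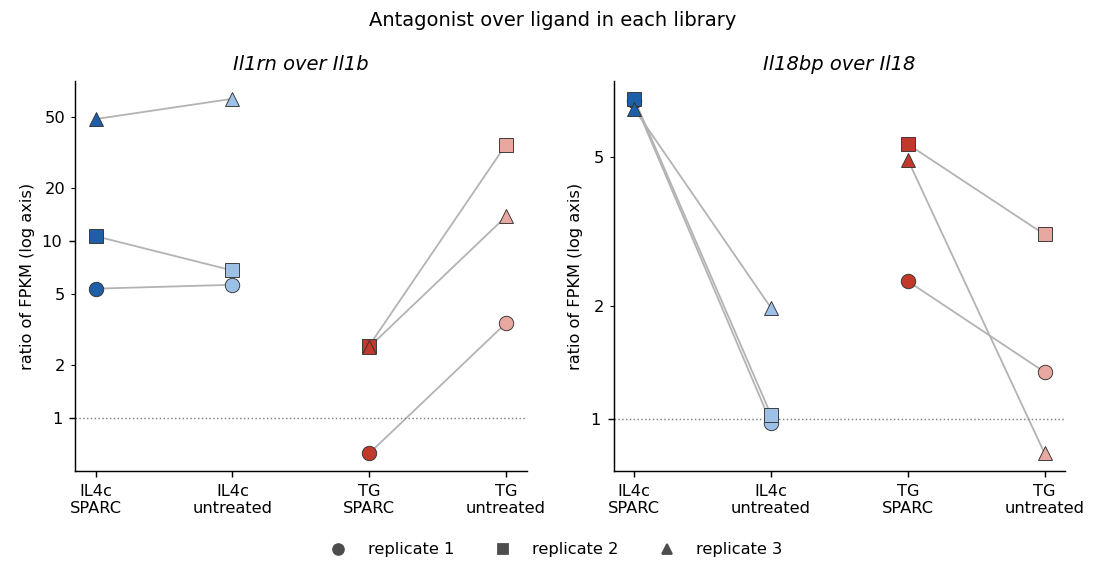
Ratio of FPKM of antagonist to ligand (y axes, log scale) in each library, by group (x axes), for Il1rn over Il1b (left) and Il18bp over Il18 (right), with grey lines joining SPARC and untreated libraries of the same number and a dotted line at 1. The Il1rn to Il1b ratio is lower with SPARC in all 3 TG pairs and mixed in IL4c pairs, and the Il18bp to Il18 ratio is higher with SPARC in all 6 pairs.

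The signalling chains differed in level and in response. Il1r1 (chromosome 1, 40225080 to 40317257, plus strand), the chain that binds IL-1 first, was at 15.1, 18.8 and 6.58 CPM in IL4c cells with SPARC, against 0.292, 0.514 and 0.746 CPM in untreated IL4c cells. In TG cells it was at 16.5, 8.70 and 8.76 CPM with SPARC, against 0.707, 7.43 and 7.93 CPM untreated. The lowest IL4c library with SPARC was 8.83 times the highest untreated one, and untreated TG library 1 was near the untreated IL4c level. Il1r1 rose by 4.68 ± 0.86 in IL4c cells (adjusted p = 0.00352, edgeR), and this call was kept in all of the alternatives run. In TG cells the difference of 1.08 ± 0.72 did not pass (adjusted p = 0.384, edgeR). It came from pair 1, at 23.4 times, while the other pairs were at 1.17 and 1.10 times, and it was 0.21 without pair 1.

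Fibroblasts and mesothelial cells also carry Il1r1, so the sum of 10 of their markers is given beside it. That sum was 61.9, 114 and 106 CPM in IL4c cells with SPARC, against 10.03, 7.08 and 19.04 CPM in untreated IL4c cells, and 30.8, 200 and 228 CPM in TG cells with SPARC, against 6.46, 148 and 128 CPM in untreated TG cells. In IL4c cells with SPARC most of it was Dcn (58.9, 108 and 97.1 CPM), while the collagen gene Col1a1 stayed at 0.4 to 2.19 CPM there. TG library 1 with SPARC had the highest Il1r1 level of the TG libraries and the lowest marker sum of the 3 with SPARC. The 5 endothelial cell markers summed to 14.7, 13.6 and 16.4 CPM in IL4c cells with SPARC, against 6.17, 5.60 and 6.23 CPM in untreated IL4c cells. In TG cells that sum was 23.0, 11.2 and 10.9 CPM with SPARC, against 24.2, 11.8 and 13.3 CPM untreated. Cdh5 passed as higher with SPARC in IL4c cells (5.75, 4.52 and 4.22 CPM, against 0.325, 0.182 and 0.612 CPM). The part of any of these cells in the Il1r1 result was not tested.

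**Figure D4:**
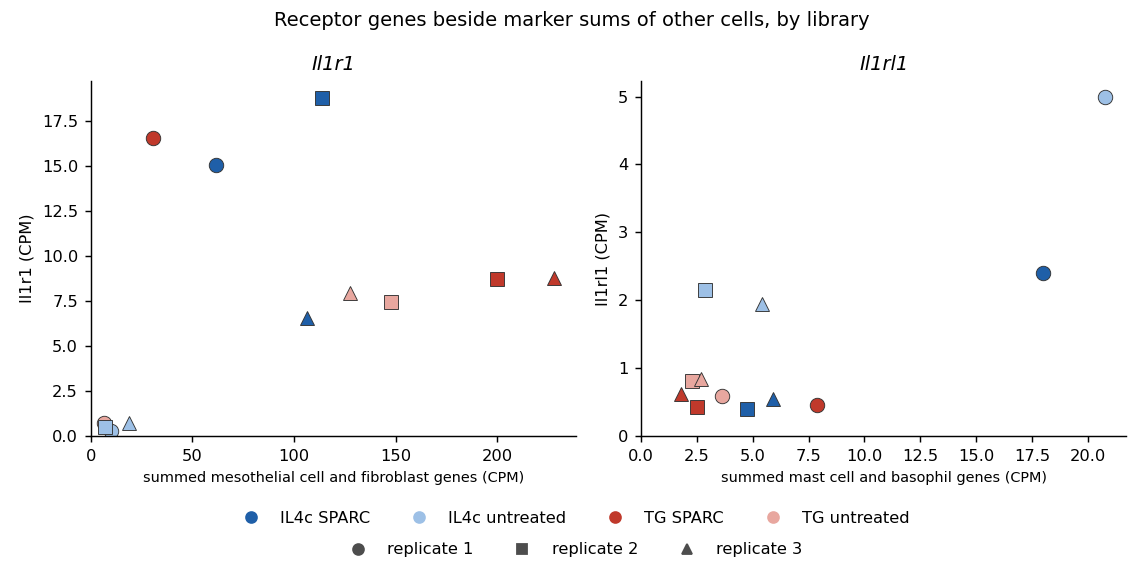
Left, CPM of Il1r1 (y axis) beside the summed CPM of 10 mesothelial cell and fibroblast genes (x axis), and right, CPM of Il1rl1 beside the summed CPM of 11 mast cell and basophil genes, 1 point per library, coloured by group and shaped by replicate. The 3 untreated IL4c libraries and untreated TG replicate 1 are low on both axes at left, and the 2 IL4c libraries numbered 1 have the highest mast cell sums (18.0 and 20.8 CPM) and the highest Il1rl1 levels at right.

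Il1rap (chromosome 16, 26581704 to 26730117, plus strand) encodes the accessory chain shared by the receptors for IL-1, IL-33 and IL-36. It was at 41.8, 39.8 and 48.0 CPM in IL4c cells with SPARC, against 22.3, 20.6 and 17.9 CPM in untreated IL4c cells. Its TG values were 28.4, 20.3 and 18.8 CPM with SPARC, against 17.8, 17.9 and 16.3 CPM untreated. The replicates were close together, and Il1rap rose by 1.09 ± 0.15 in IL4c cells (adjusted p = 8.56e-04, edgeR), with the smallest error of the 9 genes. In TG cells the difference of 0.38 ± 0.15 did not pass (adjusted p = 0.145, edgeR), although the groups did not overlap.

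The decoy Il1r2 (chromosome 1, 40074079 to 40125231, plus strand) was close to absent from untreated macrophages. It was at 1.48, 2.02 and 0.437 CPM in IL4c cells with SPARC, against 1 count in the 3 untreated IL4c libraries together. In TG cells it was at 1.89, 0.345 and 0.353 CPM with SPARC, against 2 counts in each untreated library. From summed counts, the ratio of SPARC to untreated was 134 in IL4c cells (155 counts against 1, 95% counting interval 23.7 to 5326) and 16.8 in TG cells (86 counts against 6, 95% counting interval 7.39 to 46.9). These intervals cover counting error only. Il1r2 passed as higher in IL4c cells (6.62 ± 1.18, adjusted p = 0.00302, edgeR), a fitted value that depends on how a near-zero group is handled, and in TG cells (4.00 ± 0.95, adjusted p = 0.0252, edgeR). The TG call was lost without TG pair 1 (2.68, adjusted p = 0.0987, edgeR), without SPARC library 1 (adjusted p = 0.0618, edgeR), and without each untreated TG library (adjusted p of up to 0.0857, edgeR). Per length, Il1r2 remained below the signalling receptor in IL4c cells with SPARC, at 1.03 ± 0.61 FPKM beside 2.86 ± 1.20 FPKM for Il1r1 (SD, n = 3).

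Il1rl1 (chromosome 1, 40429570 to 40465415, plus strand) encodes ST2, the receptor for IL-33, whose soluble form is itself a decoy. It was the member with lower mean levels under SPARC in both injections. It was at 2.40, 0.395 and 0.5402 CPM in IL4c cells with SPARC, against 5.00, 2.15 and 1.94 CPM in untreated IL4c cells, and at 0.457, 0.431 and 0.617 CPM in TG cells with SPARC, against 0.589, 0.808 and 0.840 CPM in untreated TG cells. Each SPARC library was below the untreated library of its own number in all 6 pairs, while the groups overlapped. The difference did not pass in IL4c cells (-1.44 ± 0.63, adjusted p = 0.118, edgeR) or in TG cells (-0.57 ± 0.66, adjusted p = 0.645, edgeR). With the replicate number as a block it passed as lower in IL4c cells (-1.69 ± 0.28, adjusted p = 0.00283, edgeR), as it did without SPARC library 1 (-2.69, adjusted p = 0.00629, edgeR). Mast cells and basophils carry Il1rl1, and their 11 markers summed to 18.0, 4.74 and 5.89 CPM in IL4c cells with SPARC, against 20.8, 2.84 and 5.43 CPM in untreated IL4c cells and 1.79 to 7.89 CPM in TG cells. Mcpt8, which marks basophils, was at 0 in all libraries, and the part of these cells in the Il1rl1 values was not tested.

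In FPKM, which set the genes on one scale, Il1rn was the most abundant of the 9 in IL4c cells with SPARC (187 ± 76.4 FPKM, SD, n = 3), followed by Il18bp (94.2 ± 27.7) and Il1a (62.6 ± 13.6), whereas in untreated IL4c cells Il1a (27.1 ± 8.19), Il1rn (19.8 ± 5.15) and Il18bp (14.9 ± 2.72) lay within about 1 SD of their neighbours. In TG cells with SPARC the order was Il1rn (102 ± 18.1), Il1b (88.3 ± 90.9), Il18bp (55.2 ± 18.2) and Il1a (50.5 ± 8.08), and the spread of Il1b, set by library 1, spans its neighbours. Untreated TG cells had Il1rn at 61.9 ± 30.6 FPKM and Il1b at 5.41 ± 3.02 FPKM. Among the receptor genes, Il1rap lay between 4.31 and 9.997 FPKM and Il1r1 between 0.103 and 2.86 FPKM as group means, and in untreated IL4c cells Il1rap (4.60 ± 0.496) was above Il1b (2.36 ± 2.11) by about 1 SD.

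The injections were also compared with each other. In untreated macrophages 21% of all genes passed in either direction between IL4c and TG cells, and 3 of the 9 members did. Il1a was higher in IL4c cells (1.11 ± 0.29, adjusted p = 0.0249, edgeR), while Il1rn (-1.49 ± 0.44, adjusted p = 0.0402, edgeR) and Il1r1 (-3.35 ± 0.82, adjusted p = 0.0196, edgeR) were lower. These calls were fragile: on leaving out 1 library at a time, Il1r1 passed in 8 of 12 fits and Il1rn in 4 of 12, and Il1rn did not pass without both IL4c libraries numbered 3 (-1.38, adjusted p = 0.115, edgeR). Il1rl1 averaged 3.03 ± 1.71 CPM in untreated IL4c cells and 0.746 ± 0.137 CPM in untreated TG cells (SD, n = 3 each), without overlap, and did not pass (2.02 ± 0.65, adjusted p = 0.0512, edgeR). With SPARC, 21% of all genes again differed between IL4c and TG cells, and of the 9 members Il1rap alone passed, as higher in IL4c cells (0.94 ± 0.15, adjusted p = 0.0028, edgeR). Il1b was lower in IL4c cells with SPARC than in TG cells with SPARC in each library, but did not pass (-2.55 ± 0.95, adjusted p = 0.0824, edgeR). Without TG pair 1, Il1rn (1.07, adjusted p = 0.0375, edgeR) and Il1r2 (1.90, adjusted p = 0.0497, edgeR) passed as higher in IL4c cells with SPARC too, when 36.2% of all genes passed in either direction.

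Whether the SPARC effect itself differed between injections was tested as the IL4c effect minus the TG effect, and 0 of the 9 members and 0% of all 15232 genes passed. At an unadjusted p under 0.05 there were 1612 genes and 3 members in edgeR. DESeq2 called 364 genes, limma-voom 0, and edgeR with the replicate block 472, of which 0 were members. The 3 members were Il1rn (2.42 ± 0.62, adjusted p = 0.219, edgeR), Il1r1 (3.60 ± 1.08, adjusted p = 0.266, edgeR) and Il1rap (0.72 ± 0.21, adjusted p = 0.264, edgeR), each with the larger effect in IL4c cells. DESeq2 passed Il1rn and Il1r1. Without TG pair 1, 848 genes and all 3 of these members passed: Il1rn at 2.92 (adjusted p = 0.0144, edgeR), Il1r1 at 4.47 (adjusted p = 0.0092, edgeR) and Il1rap at 0.88 (adjusted p = 0.0187, edgeR). For Il1b the difference was -1.46 ± 1.32 and for Il1a -0.76 ± 0.41, and neither passed (adjusted p = 0.795 and 0.572, edgeR), so a larger response of either ligand in TG cells was not shown.

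Beyond the 9, 12 further IL-1 family ligands and receptors were in the table, of which 6 could be tested, 5 had 0 counts in all libraries and Il1f6 had at most 11 counts. SPARC raised 3 of the 6 in IL4c cells, beside 15.1% of all genes, and 1 of the 6 in TG cells, beside 6.73%, and lowered none. With the replicate block 3 of the 6 rose in TG cells, beside 14.3% of all genes. Il33, the ligand of Il1rl1, was at 2.98, 6.54 and 7.67 CPM in IL4c cells with SPARC, against 0.195, 0.121 and 0.213 CPM in untreated IL4c cells. In TG cells Il33 was at 0.609, 1.03 and 1.15 CPM with SPARC, against 0.0707, 0.339 and 0.446 CPM untreated. Il33 rose by 4.99 ± 0.64 in IL4c cells (adjusted p = 5.53e-04, edgeR), and did not pass in TG cells (1.70 ± 0.57, adjusted p = 0.0874, edgeR). Il1rl2, the receptor for IL-36, was at 73.1, 68.1 and 58.4 CPM in IL4c cells with SPARC, against 8.34, 5.51 and 13.6 CPM in untreated IL4c cells, and at 45.4, 21.7 and 21.4 CPM in TG cells with SPARC, against 2.57, 6.70 and 8.53 CPM in untreated TG cells. It rose by 2.86 ± 0.49 in IL4c cells (adjusted p = 0.00244, edgeR) and by 2.31 ± 0.48 in TG cells (adjusted p = 0.0154, edgeR). Il1f9, which encodes IL-36 gamma, a ligand of Il1rl2, rose in IL4c cells (3.80 ± 0.93, adjusted p = 0.0139, edgeR) at low levels of at most 1.54 CPM. These lists were chosen by name with earlier results of the same data known.

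Several of these receptors sit side by side. On chromosome 1 of GRCm38, Il1r2, Il1r1, Il1rl2, Il1rl1, Il18r1 and Il18rap follow each other on the plus strand between 40074079 and 40551705, a stretch of 478 kb with no other protein-coding gene. In IL4c cells the first 3 of the row rose with SPARC (6.62, 4.68 and 2.86), and the next, Il1rl1 (-1.44), Il18r1 (-0.47) and Il18rap (0.85), did not pass. In TG cells Il1r2 (4.00) and Il1rl2 (2.31) rose, and Il1r1 (1.08), Il1rl1 (-0.57), Il18r1 (0.55) and Il18rap (0.96) did not pass. Il18r1 and Il18rap, the chains of the IL-18 receptor, were at no more than 2.56 CPM in any library. The split after Il1rl2 is a description of 6 neighbours.

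Downstream of the receptor, 20 signalling genes were tested, and SPARC raised 6 and lowered 2 in IL4c cells and raised 3 and lowered 1 in TG cells. Of all genes, 15.1% were higher and 12.7% lower in IL4c cells and 6.73% higher and 4.52% lower in TG cells, so the shares lowered were near those of all genes. Their median log2 fold change was 0.16 in IL4c cells and 0.04 in TG cells, beside 0.00 and -0.03 over all genes. Tnfaip3, encoding the NF-kB inhibitor A20, rose by 1.91 ± 0.20 in IL4c cells (adjusted p = 2.35e-04, edgeR) and by 1.01 ± 0.20 in TG cells (adjusted p = 0.0123, edgeR). Irak3, encoding an inhibitory IRAK that lacks kinase activity, rose by 1.70 ± 0.31 in IL4c cells (adjusted p = 0.00327, edgeR) and by 1.27 ± 0.30 in TG cells (adjusted p = 0.0265, edgeR). The adaptor Myd88 rose by 0.73 ± 0.13 and 0.53 ± 0.13 in IL4c and TG cells (adjusted p = 0.00279 and 0.0271, edgeR). Irak4, the first kinase of the pathway, fell by 0.49 on the log2 scale in IL4c cells (adjusted p = 0.00545, edgeR), and Map3k8, an ERK-activating kinase, fell by 0.34 in IL4c cells and by 0.47 in TG cells (adjusted p = 0.0218 and 0.0129, edgeR). With the replicate block 7 were higher and 2 lower in TG cells, when 14.3% of all genes were higher and 13.1% lower, and across the alternatives the number higher was 3 to 7 in IL4c cells and 0 to 7 in TG cells. Tnfaip3 lost its TG call in the fit of the TG groups alone (adjusted p = 0.05, edgeR), and on leaving out 1 library at a time the TG call was kept in 9 of 12 fits for Irak3, 8 of 12 for Myd88 and 11 of 12 for Map3k8.

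Of 20 genes for maturation and release of IL-1 and IL-18, SPARC raised 5 and lowered 4 in IL4c cells and raised 2 and lowered 2 in TG cells, with medians of 0.14 and 0.13. Of all genes, 15.1% were higher and 12.7% lower in IL4c cells, and 6.73% were higher and 4.52% lower in TG cells. With the replicate block 6 were higher and 5 lower in TG cells, beside 14.3% and 13.1% of all genes. Casp4, which encodes mouse caspase-11, the sensor of intracellular lipopolysaccharide, rose by 1.75 ± 0.19 in IL4c cells (adjusted p = 2.78e-04, edgeR) and by 1.13 ± 0.19 in TG cells (adjusted p = 0.00637, edgeR). Mefv, encoding the inflammasome sensor pyrin, rose by 2.91 ± 0.36 and 1.52 ± 0.34 in IL4c and TG cells (adjusted p = 5e-04 and 0.0217, edgeR). Gsdmd, encoding the pore-forming gasdermin D, rose by 1.09 ± 0.18 in IL4c cells (adjusted p = 0.00217, edgeR). The sensor gene Nlrp1b fell by 1.82 in IL4c cells and by 1.12 in TG cells on the log2 scale (adjusted p = 9.68e-04 and 0.0211, edgeR), and Txnip, encoding a thioredoxin-binding protein, fell by 0.99 in IL4c cells and by 0.76 in TG cells (adjusted p = 0.00651 and 0.0425, edgeR). Casp1, the protease that cleaves both cytokines, and Nlrp3 are named for that role after their values were seen: Casp1 rose by 1.11 ± 0.22 in IL4c cells (adjusted p = 0.00474, edgeR), and Nlrp3 did not pass in IL4c cells (0.19 ± 0.42) or TG cells (0.35 ± 0.42). On leaving out 1 library at a time, the TG call was kept in 8 of 12 fits for Mefv and 9 of 12 for Nlrp1b but in 2 of 12 for Txnip, which passed in 10 of all 25 alternatives, and Casp4 kept its TG call in all of the alternatives run.

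**Figure D5:**
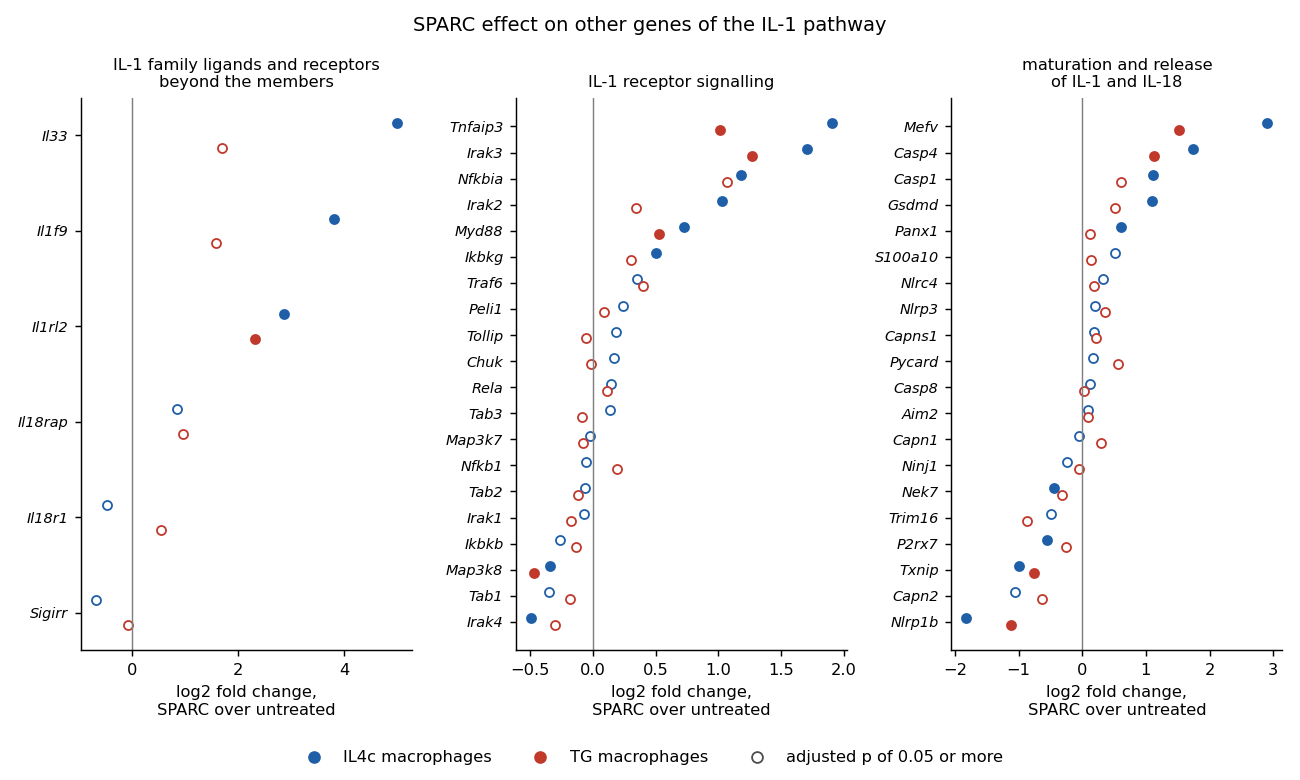
Log2 fold change of SPARC over untreated macrophages (x axes) for the tested genes of 3 lists (y axes), in IL4c macrophages (blue, upper point) and TG macrophages (red, lower point), filled where the adjusted p was under 0.05. Il33 (4.99) and Il1f9 (3.80) stand out among further family members in IL4c cells, and Tnfaip3, Irak3, Casp4 and Mefv are filled in both injections.

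The genes whose profiles over the 12 libraries were most like those of the members were found by the root mean square difference of centred log2 CPM, among genes of at least 10 CPM on average. Il18bp was nearest to Phf11b (0.35), Tap1 (0.39) and Stat2 (0.42), against a median of 1.21 over all such genes. Il1rn was nearest to Nr1h3 (0.50), Mreg (0.51) and Itga5 (0.57), against a median of 1.31. Il1a was nearest to Gm4735 (0.37), Gm6560 (0.40) and Ldha (0.41), against a median of 1.01. Il1rap was nearest to Sri (0.13), Mars (0.17) and 1110012L19Rik (0.18), against a median of 0.60. Il1b had no close match, its nearest being Spata13 (1.27), AI504432 (1.28) and Siglece (1.28), against a median of 2.28. Il18, Il1r1, Il1r2 and Il1rl1 averaged under 10 CPM and were not compared in this way.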

How the data were processed

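Expected counts per gene were deposited by the authors as 1 table of 12 libraries. They are not scaled, and 7.97% of them are not whole numbers. FPKM values were deposited by the authors as a second table, scaled by them for gene length and depth. STAR and RSEM made these values, after CASAVA and bcl2fastq 1.8.4, as named per the submitters' processing notes. The sources used here name no genome build, annotation or strandedness, so reads of a gene and an overlapping gene on the other strand may not be separable.

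Counts were rounded and fitted in R 4.3.3 with edgeR 4.0.16 (quasi-likelihood, TMM scaling, robust dispersion, minimum count of 10 in filterByExpr), using all 12 libraries in 4 groups with 8 residual degrees of freedom. The common biological coefficient of variation was 0.308. Adjusted p-values cover all 15232 genes tested, and the fit was tested on simulated data. CPM use TMM-scaled library sizes. Log2 ratios of FPKM used a pseudocount of 0.1 and two-sided exact permutation tests, and the linear ratios used none. No 2 libraries of a group were copies of each other, since their counts differed by far more than sampling noise. Yet each group held 2 libraries that were much closer to each other than to the remaining one. Chi-square per degree of freedom was 10.6 (SPARC) and 20.6 (untreated) between TG libraries 2 and 3, against 265 to 399 with library 1. Between IL4c libraries 1 and 2 it was 33.6 (SPARC) and 23.8 (untreated), against 106 to 117 with library 3.

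Libraries of the same number within an injection varied together (correlation of deviations from the group mean 0.34 to 0.74 in 6 pairs of libraries). Different numbers within an injection gave -0.66 to 0.51, which overlaps that range. All of the negative values involved a TG library numbered 1 or an IL4c library numbered 3. Among TG libraries 2 and 3, different numbers gave 0.51 and 0.45, beside 0.60 and 0.53 for the same number. Among IL4c libraries 1 and 2, different numbers gave 0.19 and 0.16, beside 0.41 and 0.34. Deviations from a group mean cancel out within the group, so these correlations are not independent. The main fit used group means and left this pairing out. Only the replicate block, an alternative, treated the number as pairing SPARC and untreated wells. Across injections the same number gave -0.18 to 0.25 and different numbers -0.28 to 0.22, so no pairing was seen there. In comparisons between injections the replicate block still took the number as shared, and its calls there rest on that.

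The members, the lists and the tests were chosen with earlier results of these data known. All 9 members are named, and of each other list up to 4 genes with the smallest p among those passing in a comparison. The alternatives tried were DESeq2 1.42.0 and limma-voom (limma 3.58.1), scaling by RLE or total counts, other filters, limma on log2 FPKM with pseudocounts of 1 and 0.1, the compared groups alone, the replicate block, each library left out, and TG pair 1 or IL4c pair 3 left out. For the other lists these were applied after seeing the data. Positions come from the GENCODE annotation of GRCm38, which holds 99.1% of the gene identifiers without their version and 82.1% with it, and promoters from RefSeq GRCm38.p6. One motif listed for the promoter search is not reported here.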

Additional observations from a re-analysis of the deposited data

How the results depend on the processing

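Of the calls in the report, those of Il1rn, Il18bp, Il1r1, Il1r2 and Il1rap in IL4c cells and of Il1a in TG cells were kept in all of the alternatives that could test the gene, and so were those of Il33, Il1rl2, Tnfaip3, Casp4 and Mefv in IL4c cells. Il1a in IL4c cells passed in 23 of 25 alternatives, Il1b in TG cells in 19 of 25 and Il1r2 in TG cells in 14 of 24. With the replicate block, 8 members passed in IL4c cells (7 higher, with Il1b added, and Il1rl1 lower) and 3 in TG cells, beside 45.2% and 27.3% of all genes. For the pairing within an injection the block changed no other call of a member. The numbers of members passing were otherwise as follows. IL4c with SPARC against TG with SPARC gave 2 in DESeq2 (Il1b, as lower, added) and 3 without TG pair 1, beside 27.5% and 36.2% of all genes. With the replicate block this comparison gave 2 (Il1b, as lower, added), beside 25.2% of all genes. That block takes the number as shared across injections, which the correlations did not show. The difference of the SPARC effects gave 2 in DESeq2 and 3 without TG pair 1, beside 2.39% and 5.57%. Untreated IL4c against untreated TG gave 1 on log2(FPKM + 1) without a filter, beside 11% of all genes. In the compared groups alone that comparison gave 1 (Il1rl1), beside 10.4%. There, TG cells with SPARC against untreated gave 1 (Il1a), beside 3.01%. On leaving out 1 library at a time, 1 to 3 members passed for SPARC in TG cells, beside 4.99 to 13.6% of all genes. For untreated IL4c against TG 0 to 4 passed, beside 10.1 to 29.5%. For IL4c against TG with SPARC 1 to 2 passed, beside 12.1 to 27.8%. For the difference 0 to 2 passed, beside 0 to 1.83%. In these fits the difference of log2 Il1rn to Il1b ratios in IL4c cells ran between -0.67 and 1.21.

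Signs changed for Il18, Il1r1, Il1rl1 and the Il1rn to Il1b ratio in IL4c cells. For Il18 the TG effect was 0.030 in limma-voom, 0.0071 without a filter, 0.041 with the replicate block, 0.34 without TG pair 1 and -0.25 to 0.40 on leaving out 1 library, and the IL4c effect -0.086 to 0.31. Il18 in untreated IL4c against TG was 0.28 without TG pair 1, 0.043 without IL4c pair 3 and -0.38 to 0.28 without 1 library. With SPARC it was -0.020 on log2(FPKM + 1) with or without a filter, -0.023 on log2(FPKM + 0.1) and -0.21 to 0.17 without 1 library, and its difference of effects was -0.16 without TG pair 1 and -0.22 to 0.43 without 1 library. IL4c against TG with SPARC ran between -0.065 and 0.62 for Il1r1 and between -0.10 and 1.54 for Il1rl1 without 1 library, where Il1rl1 was at 1.14 with all libraries and changed sign without IL4c SPARC library 1. The cause was not tested. Over all genes, SPARC changed 4237 genes in IL4c cells and 1714 in TG cells, but 6880 and 4165 with the replicate block, and in TG cells 2632 in DESeq2 and 458 in the compared groups alone. The TG genes split into 1025 higher and 689 lower, but 758 and 938 with total-count scaling, and untreated IL4c against TG gave 1548 and 1649, but 1154 and 2790, with the median of all genes at -0.16. Depth limits what can be said of Il1r2 in untreated cells, at 0 to 2 counts per library.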
